A study of Rattus norvegicus with 21 samples.

Results

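Activity-regulated immediate early genes, which neurons switch on within minutes of activity, were followed as a set of 10 across 21 single rat hippocampal neurons. They are listed by symbol, and were chosen with earlier results of these data known. They are the AP-1 genes Fos, Fosb and Junb, the Egr zinc-finger genes Egr1, Egr3 and Egr4, the nuclear receptor genes Nr4a1 and Nr4a2, and the effector genes Arc and Vgf. All 10 symbols were found, each on 1 row, among the 16245 gene symbols of the expression table.

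The study, by its title, asks how factors released by oligodendrocytes affect hippocampal GABAergic neurons. All cells came from Wistar rats carrying a VGAT-Venus transgene, which marks cells that use the vesicular GABA transporter, and were taken at embryonic day 18 and kept 17 days in vitro. The 5 pyramidal neurons and 6 GABAergic neurons of the glial cultures grew beside glial cells, and the antimitotic agents are described for purified cultures only. The 5 purified GABAergic neurons came from cultures given FdU and U at 5 µM from 24 h after dissection for 36 h. The 5 neurons called OCM cells here had the same antimitotic treatment and also oligodendrocyte conditioned medium (OCM) from day 3 in vitro. Every neuron was recorded with a patch electrode before its contents were drawn into that electrode, amplified with SMART-Seq v4 and sequenced, and the sources used here do not give the length of the recording. Cells are numbered within their group, and the numbers are names only. No animal or culture is named, so each group counts as 1 sample. No test was made, and every spread below is a spread between cells.

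Immediate early genes are transcribed by factors already present in the cell, without new protein synthesis. Calcium entry through receptors and channels activates CREB, which binds the cyclic AMP response element, and serum response factor, which binds the CArG box. The Fos, Jun, Egr and Nr4a proteins are transcription factors that drive a slower second wave of genes. Arc protein acts at synapses and in receptor traffic, and Vgf is a precursor of secreted neuropeptides that many neurons also make at rest.

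Promoter windows from RefSeq (assembly GRCr8) were matched for 7 of the genes, namely Fosb, Junb, Egr1, Egr4, Nr4a1, Nr4a2 and Vgf. Each window holds 300 bases, 250 before and 50 after the annotated start. Those of Vgf, Nr4a1, Egr4 and Junb are shown because they hold cyclic AMP response elements and because these genes had unlike patterns across the cells. Capitals mark the full element TGACGTCA or its core TGACG, on either strand, so that a core on the other strand reads CGTCA. The windows lie at chr12:25276971-25277270 on the minus strand (Vgf), chr7:134259888-134260187 on the plus strand (Nr4a1), chr4:119607768-119608067 on the minus strand (Egr4) and chr19:40080876-40081175 on the plus strand (Junb), and they read 5′ to 3′ along the gene.
Vgf: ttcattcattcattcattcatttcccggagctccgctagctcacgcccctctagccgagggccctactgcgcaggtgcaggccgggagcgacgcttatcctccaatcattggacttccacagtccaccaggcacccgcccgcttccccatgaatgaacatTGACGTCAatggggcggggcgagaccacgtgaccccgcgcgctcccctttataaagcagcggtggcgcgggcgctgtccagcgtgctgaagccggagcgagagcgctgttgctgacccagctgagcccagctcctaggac
Nr4a1: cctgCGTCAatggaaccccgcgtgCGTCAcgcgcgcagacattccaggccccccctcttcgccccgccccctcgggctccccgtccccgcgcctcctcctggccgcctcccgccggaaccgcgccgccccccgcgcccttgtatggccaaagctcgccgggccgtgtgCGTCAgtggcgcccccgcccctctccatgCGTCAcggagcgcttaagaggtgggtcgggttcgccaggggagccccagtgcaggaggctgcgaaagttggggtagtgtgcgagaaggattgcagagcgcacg
Egr4: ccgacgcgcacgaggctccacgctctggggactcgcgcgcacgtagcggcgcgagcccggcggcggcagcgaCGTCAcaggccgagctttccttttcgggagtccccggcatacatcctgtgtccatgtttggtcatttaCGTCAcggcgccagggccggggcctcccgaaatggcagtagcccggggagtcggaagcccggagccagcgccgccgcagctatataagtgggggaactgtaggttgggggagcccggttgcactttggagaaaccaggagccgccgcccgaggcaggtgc
Junb: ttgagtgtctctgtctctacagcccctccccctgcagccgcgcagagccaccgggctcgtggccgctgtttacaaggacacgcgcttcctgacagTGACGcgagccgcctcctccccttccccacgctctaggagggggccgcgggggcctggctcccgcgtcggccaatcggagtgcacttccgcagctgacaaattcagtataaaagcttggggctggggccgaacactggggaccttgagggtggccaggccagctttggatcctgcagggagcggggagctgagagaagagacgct
The full element was found in Vgf alone among the 7, and in 1.83% of all 33469 windows of this length. The core, which is part of the full element on both strands, was found in 6 of 7, with Fosb the exception, and in 21.2% of all windows. Nr4a1 held 4 cores and Egr4 held 2. The CArG box, searched as CC, then 6 letters A or T, then GG, was found in Egr1 alone, with 2 matches, against 1.64% of all windows. The EGR site, GCGGGGGCG or GCGTGGGCG on either strand, was found in Nr4a1 alone, against 3.20% of all windows. TATAAA, on either strand, was found in Fosb, Junb and Vgf, and in 14.2% of all windows. A match is a description of the letters, and binding was not measured.

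Values are the authors' DESeq2-normalized counts, in which all nonzero values of a cell were whole multiples of the worth of 1 read, within 0.05 of a whole number. The recovered depth ran from 1817671 to 25160911 reads per cell. The cells also differed in how many genes were above 0, with 2540 to 5325 in pyramidal, 3760 to 8652 in glia-cultured GABAergic, 2573 to 4065 in purified and 3992 to 6331 in OCM cells. Gad1 was above 0 in all GABAergic cells except purified cell 4, which had Gad2 and Slc32a1, and in none of the pyramidal cells, of which cells 1 and 2 had Gad2 at 924 and 714. Slc17a7, the glutamate transporter of pyramidal neurons, was above 0 in 4 of 5 pyramidal cells and in no GABAergic cell. The exception was pyramidal cell 3, which had the neuronal factor gene Neurod2 at 1770 as its one marker of glutamatergic cells, and the myelin gene Mbp at 278859, the astrocyte and microglial gene Apoe at 59681 and the microglial gene Tyrobp at 7032. Pyramidal cell 4 had Mbp at 95386 beside Slc17a7 at 7887. The 10 oligodendrocyte markers summed to 0, 1840, 324915, 103570 and 0 in pyramidal cells 1 to 5, with Olig2 at 1604 in cell 2, and to between 0 and 1352 in the glia-cultured GABAergic cells. The main values of pyramidal cells are given with and without cells 3 and 4, the 2 with Mbp.

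Fos, the partner of Jun proteins in AP-1, was the most widely found of the transcription factor genes, above 0 in 17 of 21 cells (rn6 chr6:109300433-109303299). It measured 3003, 6664, 0, 3683 and 3706 in pyramidal cells 1 to 5, and 0, 2149 and 4286 as the lowest, median and highest glia-cultured GABAergic cell. The purified cells had 19.8, 3007, 0, 0 and 131, and the OCM cells 574, 768, 1132, 4413 and 9682. Every glia-cultured cell of either type that had Fos was at 2118 or more, as were 1 purified and 2 OCM cells, and all OCM cells had some. The only pyramidal cell without it was cell 3, the one without Slc17a7. Among purified cells the mean was 631 ± 1329 (SD, n = 5 cells), and among OCM cells 3314 ± 3890 (n = 5 cells), so that the spread within each group was as large as its mean. The 3 of 5 purified cells with Fos have an exact binomial 95% interval of 14.7% to 94.7%, and the 5 of 5 OCM cells one of 47.8% to 100%, for counting error only.

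Fosb, a relative of Fos with a longer-lived splice form, was above 0 in 5 cells. These were pyramidal cell 2 at 271, glia-cultured GABAergic cell 4 at 454, and OCM cells 2, 4 and 5 at 14.2, 57.8 and 599. It was at 0 in all purified cells, where 3 reads over the group would be a mean of 1.64. Junb, a Jun-family partner of Fos, was above 0 in 4 of 5 pyramidal cells. Pyramidal cells had 308, 4801, 44.0, 1657 and 0. Among the 16 GABAergic cells only 4 had it, namely glia-cultured cells 4 and 5 at 205 and 24.5, purified cell 5 at 1848 and OCM cell 2 at 6.10. Cell 5 was the pyramidal cell without Junb, although its Fos stood at 3706.

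Egr1, a zinc-finger activator of many neuronal targets, was above 0 in 12 cells (rn6 chr18:27657551-27661336). Pyramidal cells had 0, 6700, 0, 3125 and 49853, the last being the highest value of any of the 10 genes in any cell. Glia-cultured GABAergic cells had it in cells 3 and 5 only, at 1272 and 7.47, and purified cells in cells 1 and 2 only, at 84.1 and 2310. All OCM cells had it, at 1170, 111, 1456, 85.3 and 4240. Egr1 was therefore found in every OCM cell and in 4 of the other 11 GABAergic cells. Pyramidal cell 1 had none, with Fos at 3003 and Egr4 at 1280.

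Egr4, a member of the same family, was above 0 in 10 cells (rn6 chr4:117293619-117296082). Pyramidal cells had 1280, 2524, 0, 1910 and 2432, so that the gene was high in 4 cells and absent from cell 3. Glia-cultured GABAergic cells had it in cells 1 and 5 only, at 1359 and 76.8. It was at 0 in all 5 purified cells, and stood at 137, 0, 695, 152 and 552 in OCM cells. Its 4 of 5 OCM cells carry an exact interval of 28.4% to 99.5%, and its 0 of 5 purified cells one of 0% to 52.2%. Egr3, another member, was above 0 in 4 cells. It reached 112 in pyramidal cell 2, and the other values were 3.74 in pyramidal cell 4, 1.07 in glia-cultured GABAergic cell 5 and 2.03 in OCM cell 2. Only 2 of its 4 cells had at least 10 reads.

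Nr4a1, an orphan nuclear receptor, was above 0 in 4 cells. It measured 749 in pyramidal cell 5, 311 and 64.0 in glia-cultured GABAergic cells 1 and 5, and 30.9 in purified cell 1. It was at 0 in all OCM cells. Nr4a2, its close relative, had another distribution, with 26.6, 59.0, 0, 1.25 and 315 in the pyramidal cells. In GABAergic cells it stood at 1.07 in glia-cultured cell 5, 9.33 in purified cell 5, and 209 and 1.22 in OCM cells 2 and 3. Nr4a2 was thus found in 4 of 5 pyramidal and 4 of 16 GABAergic cells, and 3 of its 8 cells had fewer than 10 reads.

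Arc, whose messenger travels to active synapses, reached at most 89.5 in any cell. It measured 47.2 and 89.5 in pyramidal cells 2 and 4, 55.3 and 27.7 in glia-cultured GABAergic cells 3 and 4, and 18.02 and 36.6 in OCM cells 1 and 2. It was at 0 in the other 15 cells, all purified cells among them. Vgf was the reverse, above 0 in 20 cells (rn6 chr12:22677601-22680630). Glia-cultured GABAergic cells ran from 2684 through a median of 5478 to 8545. Pyramidal cells had 1944, 377, 8.80, 168 and 0, all below the lowest of those 6 cells. Purified cells had 4.94, 3532, 1354, 487 and 4751, and OCM cells 3930, 756, 983, 3388 and 6505. Vgf was thus the one gene of the 10 for which every GABAergic cell was above 0.

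**Figure D1:**
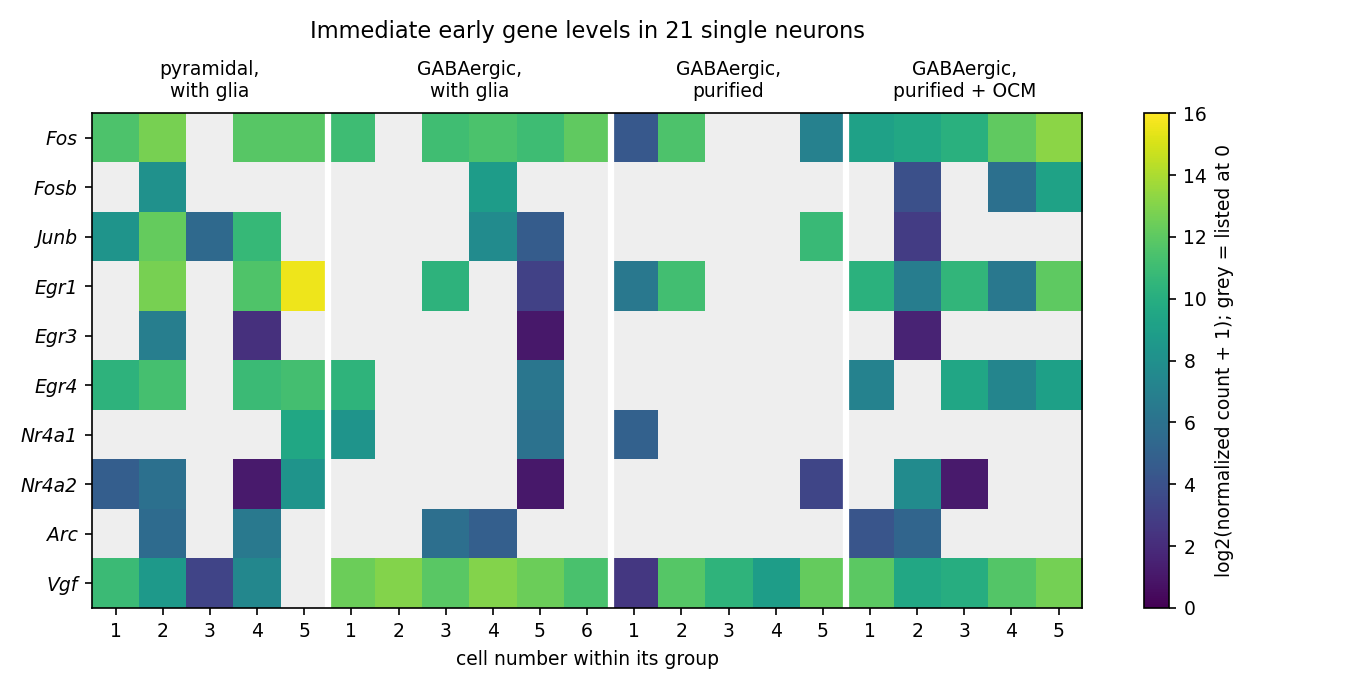
Log2 of the normalized count plus 1 of the 10 genes (rows) in each of the 21 cells (columns, numbered within the 4 groups), with grey for cells listed at 0. Fos and Vgf fill most columns, with 17 and 20 cells above 0, whereas Egr3 and Nr4a1 are above 0 in 4 cells each.

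In the order of mean log2 levels over the 4 groups, neighbouring groups overlapped for each of the 10 genes. Per cell, the pyramidal neurons had 5, 9, 2, 8 and 5 of the 10 genes above 0, and the lowest was again cell 3. The glia-cultured GABAergic cells had 4, 1, 4, 5, 8 and 2, the purified cells 4, 3, 1, 1 and 4, and the OCM cells 5, 8, 5, 5 and 5. The groups of purified and OCM cells did not overlap in this number. They overlapped in it with the other 2 groups. Glia-cultured GABAergic cell 2 and purified cells 3 and 4 had Vgf alone. With at least 10 reads asked of a gene, the OCM cells had 5, 7, 4, 5 and 5 and the purified cells 3, 3, 1, 1 and 4, so that both groups then held a cell with 4. Thinning every cell to 1817671 reads gave those same numbers in both groups.

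The mean log2 level of the 10 genes ran from 4.12 to 5.63 in OCM cells and from 0.89 to 3.45 in purified cells, again without overlap. It ran from 0.88 to 8.39 in pyramidal and from 1.31 to 4.59 in glia-cultured GABAergic cells. The number of all genes above 0 moved with these values. Over the 21 cells its logarithm had a Pearson r of 0.53 and a Spearman rho of 0.51 with the number of the 10 genes above 0, and the logarithm of total reads had 0.17 and 0.26. These are descriptions over cells that share groups. The share of symbols above 0 was 13.7% to 22.0% in purified and 21.6% to 33.9% in OCM cells, and its part in the difference was not tested.

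**Figure D2:**
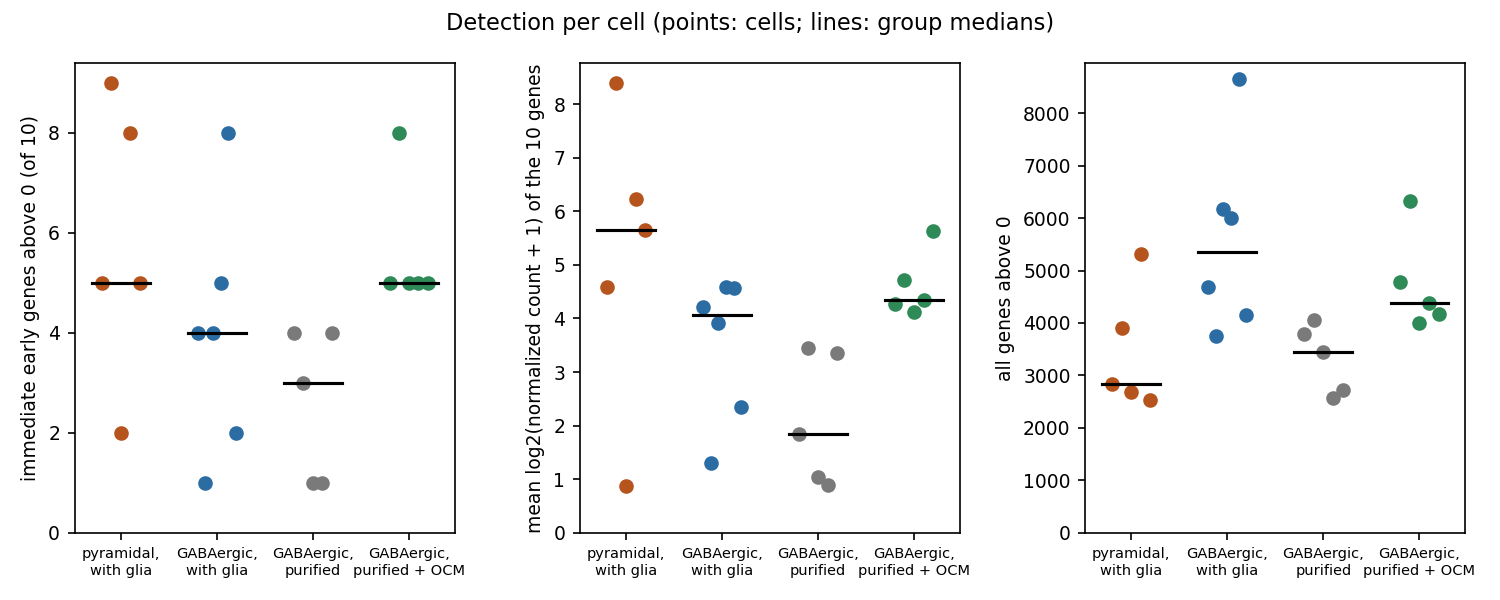
For each cell (points) and group median (lines), the number of the 10 genes above 0, their mean log2(normalized count + 1), and the number of all genes above 0. OCM cells sit at 5 to 8 of the 10 genes and purified cells at 1 to 4, while all genes above 0 number 3992 to 6331 and 2573 to 4065.

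Pyramidal and GABAergic neurons grown beside glial cells were compared first, to describe the cell types. Whether they shared cultures is not known. Junb, Egr1, Egr4, Nr4a2 and Egr3 were higher in pyramidal cells and Vgf was lower. A difference here is that of the mean log2(normalized count + 1) of 2 groups, and it understates folds of low genes. Where a gene is at 0 in many cells, the difference also follows how many cells have it. The difference can then lie well above the log2 of the fold of means, as for Egr4 and Vgf here. It was 5.28 for Junb, 5.75 for Egr1, 5.97 for Egr4, 3.86 for Nr4a2, 1.64 for Egr3 and -6.34 for Vgf. Fos stood at 0.13, Fosb at 0.15, Nr4a1 at -0.47 and Arc at 0.64. On group means, Junb stood 35.5-fold, Egr1 56.0-fold and Egr4 6.81-fold higher in pyramidal cells, and Vgf 11.5-fold higher in GABAergic cells. Single cells set the size of these folds. With each cell left out in turn, Junb ran from 13.1-fold (without pyramidal cell 2) to 278-fold (without GABAergic cell 4), and Egr1 from 11.5-fold (without pyramidal cell 5) to 7992-fold (without GABAergic cell 3). Egr4 ran from 5.68-fold to 106-fold (without GABAergic cell 1), and Vgf from 9.18-fold to 41.4-fold (without pyramidal cell 1).

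Of the 10 genes, 5 were higher by at least 1 and 1 was lower by at least 1, where 13.3% and 64.2% of the 6571 genes compared (above 0 in at least 3 of the 11 cells) were so. All genes together had a median of -2.05, and the 10 genes one of 1.14. The counts and medians of the 10 are over all of them, without the filter on cells above 0, here and in the other comparisons. Vgf was the 1 gene of the 10 whose cells did not overlap between the groups, and 2.08% of the genes compared did not overlap. Without pyramidal cell 2 the difference of Egr3 was 0.39 and the median of the 10 was 0.19, and without cell 3 that median was 2.31. Without cells 3 and 4, which carried Mbp, the median was 2.34, with 7 genes higher and 1 lower by at least 1, and Fos stood at 2.58, Fosb at 1.22, Junb at 4.77, Egr1 at 7.21, Egr3 at 2.10, Egr4 at 8.18, Nr4a2 at 6.16 and Vgf at -5.88. The folds of means were then 1.97 for Fos, 44.4 for Junb, 88.4 for Egr1, 8.69 for Egr4 and 7.41 for Vgf. Fos and Fosb were the genes added to the 5 higher over all cells. The difference of Fos rested largely on the 0 of glia-cultured GABAergic cell 2, as the other cells of that group had 2118 to 4286. Fosb was above 0 in 1 cell of each group, pyramidal cell 2 at 271 and glia-cultured GABAergic cell 4 at 454. Within the cells with titles that open with P, a letter the labels do not explain, the median was 0.79, and Fos lay at -3.30, Fosb at -2.94, Arc at -1.39, Nr4a1 at 1.18, Junb at 1.27 and Egr3 at 0.40. Fos, Fosb, Arc and Nr4a1 thus had the opposite direction to that over all cells. The pyramidal cells with such titles are cells 3, 4 and 5, so both cells with Mbp are among them. Their Fos was 0, 3683 and 3706, against 2118 to 2873 in the GABAergic cells with such titles. The value of Fos thus rests on the 0 of cell 3. Of the 10 genes, 9 were above 0 in at least 3 of the 11 cells, with Fosb the exception.

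Purified GABAergic neurons were compared with glia-cultured ones, to describe culture without glia. Antimitotic agents are described for the purified cultures only, so these agents and the absence of glia cannot be told apart. Most of the 10 genes were lower in purified cells, and so were most genes of the table. The difference was -4.86 for Fos, -3.19 for Vgf, -2.78 for Egr4, -1.78 for Arc, -1.47 for Fosb and -1.39 for Nr4a1. Egr1 was higher by 1.28, and Junb, Nr4a2 and Egr3 lay at 0.11, 0.50 and -0.17. On group means Fos was 3.58-fold and Vgf 2.83-fold higher in the glia-cultured cells, and without purified cell 2 Fos was 60.2-fold and without purified cell 5 Vgf 4.27-fold higher. With the floor of 3 reads over the 5 purified cells, Egr4 was at least 145-fold, Fosb at least 46.0-fold and Arc at least 8.41-fold lower in purified cells, each from 1 or 2 of the 6 glia-cultured cells.

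Those 6 genes lower by at least 1 compare with 64.4% of the 6302 genes compared, and the 1 higher gene with 11%. The counts lie near the share of all genes. The median of the 10 was -1.43 and that of all genes -2.13, and none of the 10 separated the groups without overlap (1.67% of all genes compared). Single cells held several of these values. Without glia-cultured GABAergic cell 4 the difference of Fosb was 0, and without cell 1 that of Egr4 was -1.26 and that of Nr4a1 -0.21. Without cell 3 that of Arc was -0.97, and without purified cell 1 that of Vgf was -1.54. Egr1 turned to -0.63 without purified cell 2 and stood at 2.90 without glia-cultured cell 3, and the median of the 10 was -0.69 without glia-cultured cell 4. Over cells with titles in S, 4 against 1, the median was 0, and over those in P, 1 against 3, it was -2.05. Only 5 of the 10 genes, namely Fos, Junb, Egr1, Nr4a1 and Vgf, were above 0 in at least 3 of these 11 cells.

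OCM cells were compared with purified cells, the comparison the title points to. Egr4, Fos, Egr1 and Fosb were higher in OCM cells, by 6.58, 6.26, 5.68 and 3.81. Vgf was higher by 1.99, Arc by 1.90 and Nr4a2 by 1.10, and Egr3 by 0.32. Junb was lower, at -1.60, and Nr4a1 stood at -0.999, just short of a size of 1. On group means Fos was 5.25-fold and Egr1 2.95-fold higher with OCM. Most of both purified means lay in purified cell 2, without which the folds were 88.2 and 67.2, and without OCM cell 5 they were 2.73 and 1.47. Egr4, at 0 in all purified cells, was at least 187-fold higher, Fosb at least 81.5-fold and Arc at least 6.64-fold. These bounds rest on 4, 3 and 2 of the 5 OCM cells, and most of the mean of Fosb lay in OCM cell 5, at 599. For Fos, Egr1 and Egr4 the gene was found in 3, 2 and 0 purified cells and in 5, 5 and 4 OCM cells.

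The 7 of 10 genes higher by at least 1 compare with 56% of the 5143 genes compared, and the 1 lower gene with 16.4%. These counts lie near the shares of all genes, most of which were also higher in OCM cells. The median of the 10 was 1.94, and that of all genes 1.40. No gene of the 10 separated the groups without overlap, and 1.05% of all genes did. Leaving out each cell in turn gave 4.80 to 8.23 for Fos, Egr1 and Egr4. Those of other genes were smaller or turned without single cells. Without OCM cell 5 the difference of Fosb was 2.45, and without OCM cell 2 that of Arc was 1.06 and that of Nr4a2 -0.39. Without purified cell 1 that of Vgf was 0.33, and without purified cell 5 that of Junb was 0.57 and that of Nr4a2 was 1.77. All OCM cells and 4 of 5 purified cells have titles in S, and over these the median was 2.32. Of the 10 genes, 6 were above 0 in at least 3 of the 10 cells, namely Fos, Fosb, Egr1, Egr4, Nr4a2 and Vgf.

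OCM cells were last set beside glia-cultured GABAergic cells. Conditioned medium, antimitotic agents and absence of glia cannot be told apart in this comparison. Egr1 and Egr4 were higher in OCM cells, by 6.97 and 3.80, and Nr4a1 was lower, at -2.38. Egr1 was found in 5 of 5 OCM and 2 of 6 glia-cultured cells, with a mean 6.63-fold higher, and 3.31-fold without OCM cell 5 or 946-fold without glia-cultured cell 3. The mean of Egr4 was 1.28-fold higher, and 20.003-fold without glia-cultured cell 1, which held 1359. Without OCM cell 3 that ratio was 0.88, so the direction of the means of Egr4 turned. Fosb was higher by 2.34, Nr4a2 by 1.60 and Fos by 1.39. Egr3 and Arc stood at 0.15 and 0.12, and Junb and Vgf were lower, at -1.49 and -1.20. With the floor over the 5 OCM cells, Nr4a1 was at least 67.2-fold lower with OCM. That bound rests on 2 of the 6 glia-cultured cells, cell 1 at 311 and cell 5 at 64.0.

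Here 5 of 10 genes were higher and 3 lower by at least 1, against 20.3% and 44.4% of the 6772 genes compared. The median of the 10 was 0.77 and that of all genes -0.72, and none of the 10 and 0.694% of all genes separated the groups. Without glia-cultured GABAergic cell 2, the one with Vgf alone, the difference of Fos was -0.50 and the median of the 10 was -0.06. Without its cell 4, Fosb was at 3.81 and Junb at -0.37, without its cell 1 Nr4a1 was at -1.20, and without its cell 3 the median was 1.25. Without OCM cell 5 Fosb was at 0.98, and without OCM cell 2 Nr4a2 was at 0.11 and Vgf at -0.80. The differences of Egr1 and Egr4 kept within 6.25 to 8.58 and 3.09 to 5.45 with any 1 cell left out. Over titles in S, 5 against 1, the median was 1.17. In this comparison, 8 of the 10 genes were above 0 in at least 3 of the 11 cells, all but Egr3 and Nr4a1. The glia-cultured GABAergic cells enter 3 of the 4 comparisons, and the purified and the OCM cells 2 each, so these values are not independent.

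**Figure D3:**
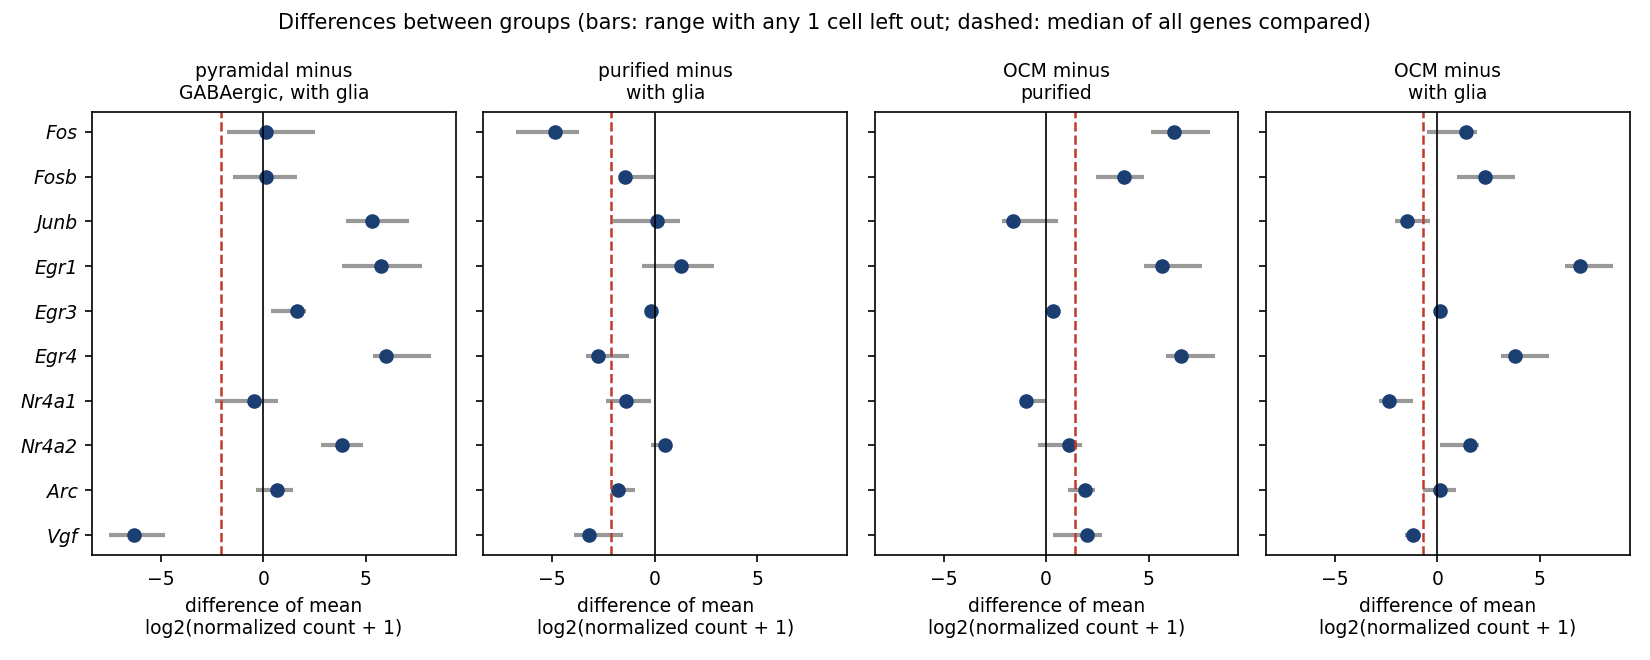
Difference of mean log2(normalized count + 1) of each of the 10 genes in the 4 comparisons (points), with the range when any 1 cell is left out (grey bars) and the median over all genes compared (dashed line). Fos, Egr1 and Egr4 lie at 6.26, 5.68 and 6.58 in OCM minus purified cells, to the right of the dashed line at 1.40.

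The cells that carried any of these genes often carried others, and the same was not measured for other sets of genes. Every cell with Fosb, Egr1, Egr3, Egr4, Nr4a1, Nr4a2 or Arc also had Fos, and so did 7 of the 8 with Junb. The exception was pyramidal cell 3, with Junb at 44.0 and Fos at 0. These numbers have to be read against Fos itself, which is above 0 in 17 of 21 cells. Egr1 and Egr4 shared 8 cells, and Egr4 without Egr1 was seen in pyramidal cell 1 and glia-cultured GABAergic cell 1. Egr3 was found in 4 cells, which had a median of 7 of the other genes.

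Over the 21 cells, 34 of the 45 pairs of genes had a Pearson r of log2 values above 0, with a median of 0.23, and the median was also 0.23 after each group's mean was taken out. The highest were 0.60 for Junb with Egr3, 0.58 for Fos with Egr4, 0.55 for Egr3 with Arc and 0.53 for Fos with Egr1. The 9 pairs with Vgf had a median r of -0.10, and 3 were above 0, while the 36 pairs of the other genes had a median of 0.30, and 31 were above 0. After each group's mean was taken out, 6 of the 9 pairs with Vgf were above 0, with a median of 0.20, and 28 of the 36 others, with a median of 0.24. Without pyramidal cells 3 and 4, 34 of 45 pairs were above 0, with a median of 0.23. With group means also taken out, 29 of the 45 pairs were above 0, with a median of 0.11. The lowest r was -0.42, for Nr4a1 with Vgf. Nr4a1 shared no cell with Fosb and none with Arc. These are descriptions over cells that share culture group, depth and number of genes found, and many rest on few cells above 0.

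**Figure D4:**
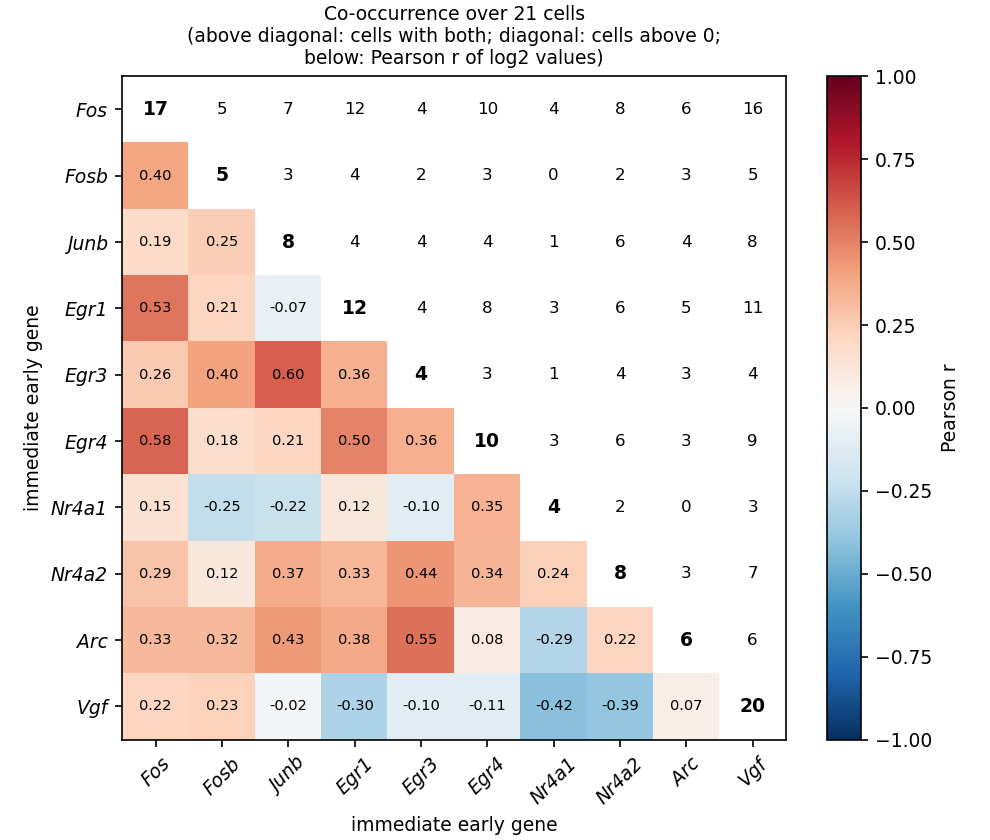
Number of cells with both genes above 0 (above the diagonal), cells with each gene (diagonal) and Pearson r of log2 values over 21 cells (below the diagonal, coloured). The Fos row of counts shows that Egr1 and Egr4 share all 12 and 10 of their cells with Fos, and the Vgf row holds the lowest r, -0.42.

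Other genes of the same response were read from lists written for this purpose, with earlier results of these data known. The list of other rapid genes had 27 of 28 genes with a row, that of late effectors 15 of 18, and that of upstream regulators and Egr corepressors 16 of 18. List counts and medians cover all genes with a row, of which 7 to 12 rapid genes, 8 to 13 late effectors and 8 to 10 upstream genes were above 0 in at least 3 cells of a comparison, whereas the shares over all genes cover only such genes. In OCM against purified cells, 11 of 27 rapid genes were higher and 3 lower by at least 1, with a median of 0.21, and 56% and 16.4% of all genes compared were so. Gadd45g, a stress and differentiation gene of the Gadd45 family, was at 0 in all purified cells and between 369 and 1354 in all OCM cells, a difference of 9.71. Dusp1, a phosphatase of MAP kinases, differed by 5.36. It was above 0 in 4 OCM cells and 1 purified cell, with group means of 780 and 602. Nr4a3, the third Nr4a receptor, differed by 4.45 and Gadd45b by 3.99. Jund, a Jun gene with steady expression in many cells, was at -2.67. It was above 0 in 3 OCM and 5 purified cells, with group means of 387 and 386. Npas4 and Maff were lower too, at -2.20 and -1.13. Each was above 0 in 1 purified cell, at 2059 and 49.4, and in no OCM cell. Among 15 late effectors 6 were higher and 1 lower, with a median of 0.82. Rgs2, a brake on G-protein signalling, differed by 8.22, and was found in 5 OCM cells with a mean of 2227 and in 1 purified cell at 10891, which gave that group a mean of 2178. The next were Crhbp (7.61), a binding protein of corticotropin-releasing hormone, Plk3 (6.66), a kinase, and Scg2 (5.99), a precursor of secretory granule peptides. Scg2 ran from 10341 to 27307 in OCM cells and from 0 to 12133 in purified cells. Among 16 upstream genes 6 were higher and 2 lower, with a median of 0, and Nab2, a corepressor of Egr proteins, differed by 4.85. In each of the 3 lists the share higher by at least 1 lay under the 56% of all genes compared. Each list median lay under the 1.40 of all genes, which, unlike the lists, cover only genes above 0 in at least 3 cells.

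In purified against glia-cultured cells, 15 of 27 rapid genes, 12 of 15 late effectors and 10 of 16 upstream genes were lower by at least 1, and 3, 1 and 1 were higher. Over all genes compared 64.4% were lower and 11% higher by that much, so the rapid and upstream lists lay near or under that share. The list medians were -1.18, -3.71 and -1.34. Gadd45g differed by -5.98 and Klf6, a zinc-finger factor, by -4.54. The 3 higher rapid genes were Npas4 (1.70), Zfp36 (1.40) and Maff (1.13), each above 0 in 1 purified cell. Rgs2 differed by -8.00, and was found in 6 of 6 glia-cultured cells and in 1 purified cell, at 10891. Ppp3ca, the catalytic subunit of calcineurin, differed by -7.14, and Nab2 by -5.10. Pcsk1, an enzyme that cuts neuropeptide precursors, differed by -6.64, and Scg2 by -6.29.

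In pyramidal against glia-cultured GABAergic cells, 9 of 27 rapid genes were higher and 5 lower by at least 1, with a median of 0, and 13.3% and 64.2% of all genes compared were so. Dusp6, a phosphatase of ERK, was above 0 in all 5 pyramidal cells and differed by 6.23, and Jun, the main partner of Fos, by 5.72. Dusp1 differed by -3.25. Late effectors split, with 4 of 15 higher and 8 lower and a median of -1.60. Rgs4 differed by 6.33 and the synaptic pentraxin Nptx1 by 4.45, whereas Plk3 and Pcsk1 lay at -5.43 and -5.37. Of 16 upstream genes 4 were higher and 9 lower, with a median of -1.22, and Camk4, a kinase that acts on CREB, lay at -6.03. Without pyramidal cells 3 and 4 Dusp6 differed by 8.09, Jun by 6.83, Dusp1 by -6.75, Rgs4 by 9.55, Nptx1 by 5.41, Plk3 by -6.94, Pcsk1 by -3.82 and Camk4 by -7.57. The rapid genes then counted 8 higher and 10 lower, with a median of 0, the late effectors 5 and 7, with -0.56, and the upstream genes 4 and 9, with -1.13.

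Against glia-cultured cells, OCM cells had 5 of 27 rapid genes higher and 7 lower by at least 1, with a median of 0.22, where 20.3% and 44.4% of all genes compared were so. Gadd45g was at 3.73 and Nr4a3 at 3.27, while Dusp6, at 0 in all OCM cells, was at -3.76 and Jund at -3.60. Jund was above 0 in 3 OCM and 6 glia-cultured cells, with group means of 387 and 377. Late effectors counted 2 of 15 higher and 8 lower, with Pcsk1 at -6.31, and upstream genes 0 of 16 higher and 9 lower, with Camk4 at -4.03. Their medians were -1.37 and -1.33.

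The genes most like the 10 in pattern were ranked by Pearson r with the mean log2 level of the 10 over 21 cells, among 4282 genes above 0 in at least 8 cells with a mean of at least 50. Gadd45g came first, with an r of 0.80, and 0.75 after the group means were taken out. Mgrn1 followed with 0.78, Ccnl1 with 0.75, Tollip with 0.73, Zfp131 with 0.73, Rgs4 with 0.71, Nf1x with 0.69 and Sparcl1 with 0.69. After the group means were taken out these ran from 0.51 (Sparcl1) to 0.71 (Mgrn1). Without pyramidal cells 3 and 4, Gadd45g and Mgrn1 kept ranks 1 and 2, with 0.79 and 0.75, and the other 6 had 0.65 to 0.73 and ranks 5 to 15. Gadd45g and Rgs4 also stand in the lists above. Over the same cells the mean log2 level of the other rapid genes had an r of 0.72 and a rho of 0.82 with that of the 10, and the late effectors 0.66 and 0.71, or 0.60 and 0.65 without pyramidal cells 3 and 4.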

How the data were processed

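Single patched neurons were sequenced from SMART-Seq v4 and Nextera XT libraries, per the labels' protocols. The authors deposited 1 signal value per gene and cell, never below 0, as DESeq2-normalized expression. The submitters' processing notes name rn6, STAR 2.4.0, DESeq2, SAMtools, Picard and FastQC, while no counter, annotation or strand setting was given in the sources used here. Of 34976 rows 18376 carry no symbol, and 0 value columns lacked a sample. For each of 16245 symbols the row with the highest mean was kept. Of nonzero values, 100% came back as whole reads within 0.05, at 1817671 to 25160911 reads per cell. No count test was run on these reads, because each group is 1 sample, and cells are not replicates. As the labels mention no molecular identifiers, intervals and floors reflect counting error only.

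Differences are of mean log2(value + 1) over cells. The genes compared were above 0 in at least 3 cells of the 2 groups, and past the fold means a size of at least 1. A floor is 3 reads over the group, taken at the largest worth of 1 read among its cells and divided by their number. Named are all 10 genes, up to 4 genes per list, comparison and direction, the 8 genes of most similar pattern, and markers. The 10 genes and the lists were chosen with earlier results of these data known. Alternatives changed the pseudocount to 10 or 0.1, the scaling, the depth, the summary over cells and the cells used. Tools were matplotlib 3.10.9, scipy 1.17.1, pandas 2.3.3, numpy 2.4.6 and Python 3.11.15, and the scripts were tested on simulated data.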

Additional observations from a re-analysis of the deposited data

Results flagged for a closer look

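Within groups of 5 or 6 cells, 16 of the 44 groups of values examined, the 10 genes' and their mean level's, held 1 cell whose gap to the next on the log2 scale was wide against the group's range. For evenly measured values chance flags about 1 in 20 groups, a rate that was not tested here and that cannot be carried over to genes at 0 in most cells. In 10 of the 16 every other cell of the group was at 0, so the gap is the finding of a gene in 1 cell. These were Fosb in pyramidal cell 2 at 271, Nr4a1 in pyramidal cell 5 at 749, Fosb in glia-cultured GABAergic cell 4 at 454, Egr3 and Nr4a2 in glia-cultured GABAergic cell 5 at 1.07 each, Junb in purified cell 5 at 1848, Nr4a1 in purified cell 1 at 30.9, Nr4a2 in purified cell 5 at 9.33, and Junb and Egr3 in OCM cell 2 at 6.10 and 2.03. Egr1 in glia-cultured GABAergic cell 3 at 1272 and Nr4a2 in OCM cell 2 at 209 stood above 1 lower cell each and zeros. In the other 4 a cell at 0 stood apart from cells with the gene. They were Fos and Egr4 in pyramidal cell 3, Fos in glia-cultured GABAergic cell 2 and Egr4 in OCM cell 2, each at 0.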

How the results depend on the processing

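Over the 10 genes and 4 comparisons, 758 alternative values were computed. Of the 550 whose main value had a size of at least 1, 10 had the opposite sign and 136 lay more than 1.5 times away. Of the other 208, 44 had the opposite sign. With the median over cells in place of the mean, the median difference of the 10 genes was 0.66 in OCM against purified cells, that of purified against glia-cultured cells was 0, and Fos in OCM against glia-cultured cells turned to -0.92. With titles in S only, the purified against glia-cultured median was 0, Nr4a1 there was 1.25, Junb was 0.57 in OCM against purified and also in OCM against glia-cultured cells, and Fos in the last was -1.22. With titles in P only, an alternative chosen after seeing the data, Egr1 in purified against glia-cultured cells was -4.47. With only genes above 0 in at least 3 cells, the OCM against purified median was 4.74, and Fosb and Egr4 passed that filter through the OCM cells alone, so the higher median is built in. Leaving out 1 cell at a time, Egr1 in purified against glia-cultured cells ran from -0.63 to 2.90, Junb and Nr4a2 in OCM against purified cells from -2.17 to 0.57 and from -0.39 to 1.77, and Fos in OCM against glia-cultured cells from -0.50 to 1.91. The cause was not tested. With pseudocounts of 10 and 0.1, the 4 medians in the order of the report were 0.59 and 1.68, -0.84 and -1.93, 1.23 and 2.62, and 0.44 and 1.14, and with every cell rescaled to the same total they were 0.59, -0.90, 1.38 and 0.55. Folds of means with cells left out, pairs with Vgf alone, and similar genes without pyramidal cells 3 and 4 were added after seeing the data. With group means at 0 set to the floor, the 4 median log2 ratios of means were 2.01, -1.84, 2.39 and 0.36 in the order of the report. The median number of the 10 genes above 0 per cell kept at 5, 4, 3 and 5 in pyramidal, glia-cultured, purified and OCM cells with at least 10 reads asked or after thinning. No paired analysis was possible because the replicate numbers are names given in accession order and no test was made.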
